A study of Mus musculus with 2 samples.

Results

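Some DNase-hypersensitive regions that formed 1 broad peak in untreated RAW264 cells carried several separate, narrow peaks in RAW264 cells given RANKL. The contrast in width was not particular to these regions. Over chromosomes 1 to 19 and X, the median peak was 1739 bp wide in the untreated list and 233 bp in the RANKL list. The broad peaks holding 2 or more RANKL peaks, with those inner peaks, are described here. The members were chosen by the positions of the peaks in both lists: a peak of the untreated library on chromosomes 1 to 19 or X was taken when at least 2 peaks of the RANKL library overlapped it by 1 bp or more. There were 2249 such broad peaks among 13479 on these chromosomes (16.7%, 95% Wilson interval 16.1 to 17.3%), and 13492 in the whole list. They held 4859 inner peaks, which made up 29.7% of the 16364 RANKL peaks on these chromosomes (interval 29.0 to 30.4%). These shares, and the widths, gaps and score ranks below, come from the lists that chose the members or are tied to them, and are descriptions with no test.

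RAW264 is a mouse macrophage-like cell line. The study had 2 libraries of DNase-seq, in which DNase I cuts accessible DNA in isolated nuclei and the short fragments are sequenced. The group without RANKL was RAW264 cells left untreated, and the group with RANKL was RAW264 cells given GST-RANKL at 234 ng/ml for 24 hours. Each group had 1 library from the line, so no value has a replicate error, and each difference describes these libraries alone. Read depth is unknown, and intervals cover counting error only and treat neighbouring peaks as independent.

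RANKL (receptor activator of NF-kappaB ligand) is the cytokine that drives macrophage precursors towards osteoclasts, the cells that resorb bone. It binds the receptor RANK and acts through NF-kappaB, AP-1 and the calcium-responsive factor NFATc1. A hypersensitive site is a stretch of DNA where nucleosomes are displaced or mobile, usually because transcription factors are bound, and promoters and enhancers are often made of several such stretches with nucleosomes between them. How far one peak or several are reported for such a region also depends on how a peak caller joins neighbouring signal. The positions below are on mm9, counted from 1. Genes were not assigned to them, because no annotation of that build was used here.

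Most members held exactly 2 inner peaks. There were 1956 of these (87.0% of the members), 249 with 3 inner peaks, 30 with 4, 10 with 5, 1 with 6, 2 with 7 and 1 with 10. Members with 3 or more inner peaks therefore numbered 293 (13.0%, interval 11.7 to 14.5%) and those with 5 or more numbered 14 (0.622%, interval 0.371 to 1.04%). The number of members depends on small gaps and on weak peaks: it was 835 with RANKL peaks closer than 200 bp merged, and 881 with only the upper 50% of the RANKL list by score. Just outside the rule lay 5925 broad peaks with exactly 1 RANKL peak, and 5305 held none. The edge of the broad peak rarely decided membership. Of the inner peaks, 4835 (99.5%) lay wholly inside their broad peak, 24 crossed an edge, and 0 RANKL peaks lay on more than 1 broad peak. Of the broad peaks with exactly 1 RANKL peak, 12 (0.203%) had a further RANKL peak within 200 bp of an edge, and 72 (1.22%) had one within 1000 bp.

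The members stood high in the score order of the untreated list. Each peak carries a score given by the authors, which is read here mainly as a percentile within its own list, where 100 is the highest. The median percentile was 77.5 in the members (quartiles 59.1 and 89.8), 61.5 in broad peaks with exactly 1 RANKL peak (quartiles 38.3 and 80.8) and 28.04 in those with none (quartiles 13.3 and 46.7). The highest 10% of the untreated list held 551 members (24.5% of the members, interval 22.8 to 26.3%), and the lowest 10% held 32 (1.42%, interval 1.01 to 2.00%). Among members, the median percentile was 76.3 with 2 inner peaks, 83.8 with 3, 89.3 with 4 and 97.4 with 5. The rise did not continue beyond that: the 1 member with 6 stood at 91.2 and the 1 with 10 at 32.9. The 2 members with 7 had a median of 98.7. When all broad peaks were divided by score into 10 parts of equal size, the proportion of members was larger in each successive part, from 32 of 1348 (2.37%, interval 1.69 to 3.33%) in the lowest to 553 of 1347 (41.1%, interval 38.5 to 43.7%) in the highest.

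**Figure D1:**
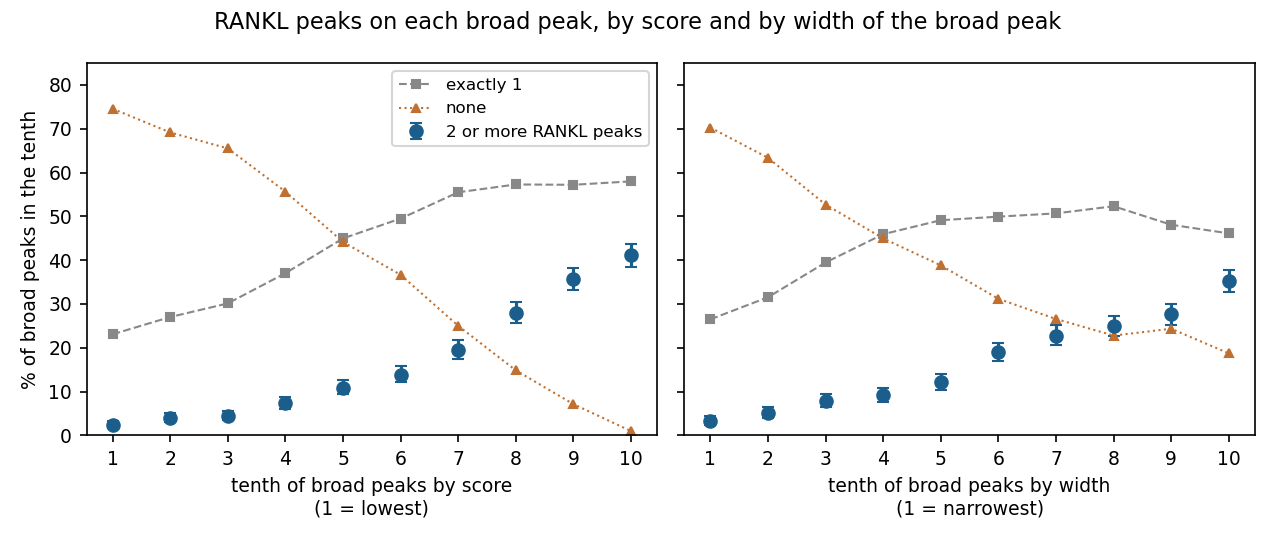
Share of broad peaks (vertical axis, %) with 2 or more RANKL peaks (circles, with 95% Wilson intervals), exactly 1 (squares) and none (triangles), in 10 equal parts of the broad peaks by score (left) and by width (right). The share with 2 or more reaches 41.1% in the highest part by score and 35.2% in the widest part.

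Members were also wide. Whether a longer stretch held more inner peaks through its length alone was not tested. The median member measured 2051 bp across (quartiles 1773 and 2555 bp, range 802 to 7971 bp), against 1806 bp in broad peaks with exactly 1 RANKL peak and 1522 bp in those with none. In the narrowest of 10 equal parts by width, 44 of 1348 broad peaks were members (3.26%, interval 2.44 to 4.35%), and in the widest 474 of 1347 were (35.2%, interval 32.7 to 37.8%). Counted over all broad peaks, the number of RANKL peaks per kb was 0.345 in those up to 1500 bp wide, 0.468 in those over 1500 and up to 2000 bp, and 0.482 in those over 2000 and up to 2500 bp. It was lower in the wider classes, at 0.425 up to 3000 bp, 0.378 up to 4000 bp and 0.296 over 4000 bp.

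Score and width were then read together. Among broad peaks in the lower 50% by score, 194 of 4830 narrower ones (4.02%, interval 3.50 to 4.61%) and 195 of 1910 wider ones (10.2%, interval 8.93 to 11.6%) were members, with the list's median width as the dividing line. In the upper 50% by score, 312 of 1920 narrower ones (16.3%, interval 14.7 to 18.0%) and 1548 of 4819 wider ones (32.1%, interval 30.8 to 33.5%) were. The share was thus larger with a higher score within each width class and with a larger width within each score class.

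Inner peaks lay close together. Across the 2610 pairs of neighbours inside 1 broad peak, the median gap from edge to edge was 106 bp (quartiles 33 and 257.75 bp, range 1 to 2802 bp). The gap was at most 20 bp in 458 pairs (17.5%), at most 100 bp in 1265 (48.5%) and over 500 bp in 254 (9.73%). Small gaps were the commonest: 440 pairs were separated by under 20 bp and 291 by 20 to 40 bp. Counts fell to 85 pairs between 120 and 140 bp. In the following steps of 20 bp, up to 240 bp, they were 92, 88, 68, 88 and 94, with no steady trend. They then went down to 46 between 280 and 300 bp. The median gap was 110 bp in members with 2 inner peaks and 98 bp in members with 3 or more.

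**Figure D2:**
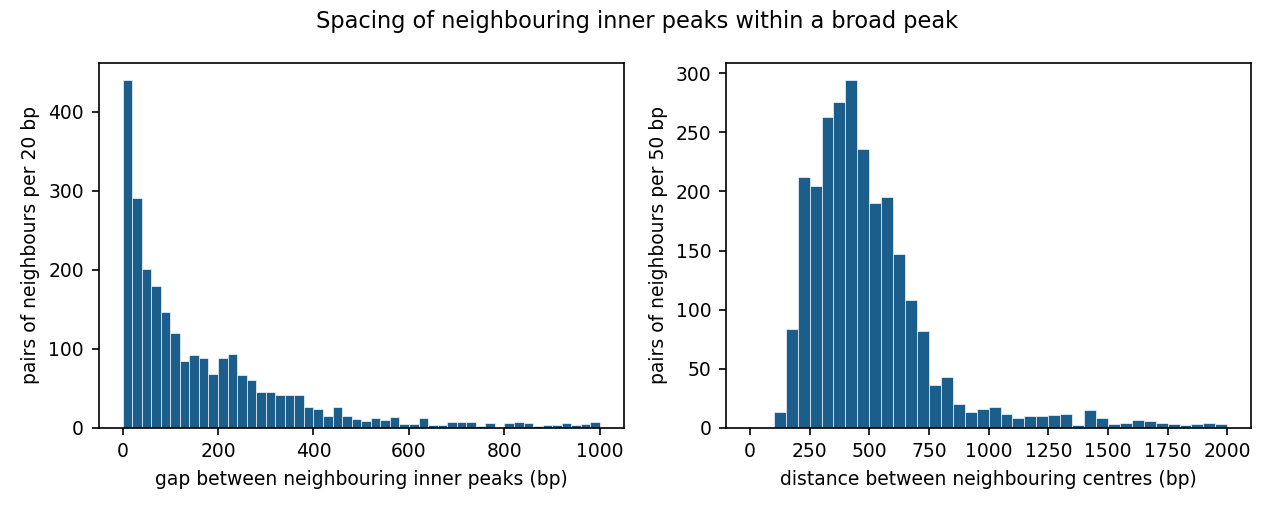
Number of pairs of neighbouring inner peaks by the gap between their edges in steps of 20 bp (left, up to 1000 bp) and by the distance between their centres in steps of 50 bp (right, up to 2000 bp). Gaps crowd towards 0, with 440 pairs under 20 bp, while centre distances are most often between 300 and 500 bp.

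The centres of neighbouring inner peaks were a median of 443 bp apart (quartiles 327.5 and 597 bp). Distances from 300 up to 400 bp (539 pairs) and from 400 up to 500 bp (530 pairs) were about equally common. The smallest distance was 113 bp, and 97 pairs were closer than 200 bp. The first and last inner peaks of a member spanned a median of 820 bp from outer edge to outer edge, which was 39.7% of the width of the broad peak. Inner peaks covered a median of 29.4% of that width, and a lone RANKL peak covered a median of 17.4% of its broad peak.

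Close neighbours in the RANKL list were mostly inner peaks of 1 broad peak. Of all neighbouring RANKL peaks at most 1000 bp apart, 2511 pairs (90.2%) shared a broad peak and 272 did not. Of those 272, 230 pairs had both peaks on no broad peak, 36 had 1 on a broad peak, and 6 lay on 2 different broad peaks. Neighbouring RANKL peaks that did not share a broad peak were a median of 53005.5 bp apart. Inner peaks cannot lie farther apart than the width of their broad peak, at most 7971 bp. This contrast is therefore tied to how the pairs were defined. Of the 16364 RANKL peaks, 5580 lay on no broad peak.

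The members graded from nearly touching inner peaks to well-separated ones. The largest gap was at most 50 bp in 649 members (28.9%), over 50 and up to 150 bp in 591, over 150 and up to 300 bp in 496, over 300 and up to 600 bp in 317, and over 600 bp in 196 (8.71%). Median widths of the broad peaks were 1957, 1974, 2022 and 2095 bp in the first 4 of these classes and 3223 bp in the last. The second-ranked inner peak stood at a median percentile of 46.9 in the class with the smallest gaps and 34.8 in the class over 300 and up to 600 bp. The last class, at 38.2, did not continue that order.

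Inner peaks were next read by score. Ranked within the RANKL list, all inner peaks had a median percentile of 58.0 (quartiles 35.2 and 77.3), and 2896 of them (59.6%, interval 58.2 to 61.0%) stood in the upper 50% of that list. The best inner peak of each member had a median percentile of 74.9, the second a median of 42.1, and all further ones a median of 33.9. An order among them follows from ranking them. For comparison, RANKL peaks alone in their broad peak had a median of 67.6 and those on no broad peak 27.1. The second inner peaks stood above the peaks on no broad peak and below the lone ones. In 1956 of 2249 members the second was the lower of 2, so its place below the unselected lone peaks is tied to that choice. Of the second inner peaks, 39.2% (interval 37.2 to 41.2%) were in the upper 50%, against 20.7% (interval 19.7 to 21.8%) of the peaks on no broad peak.

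**Figure D3:**
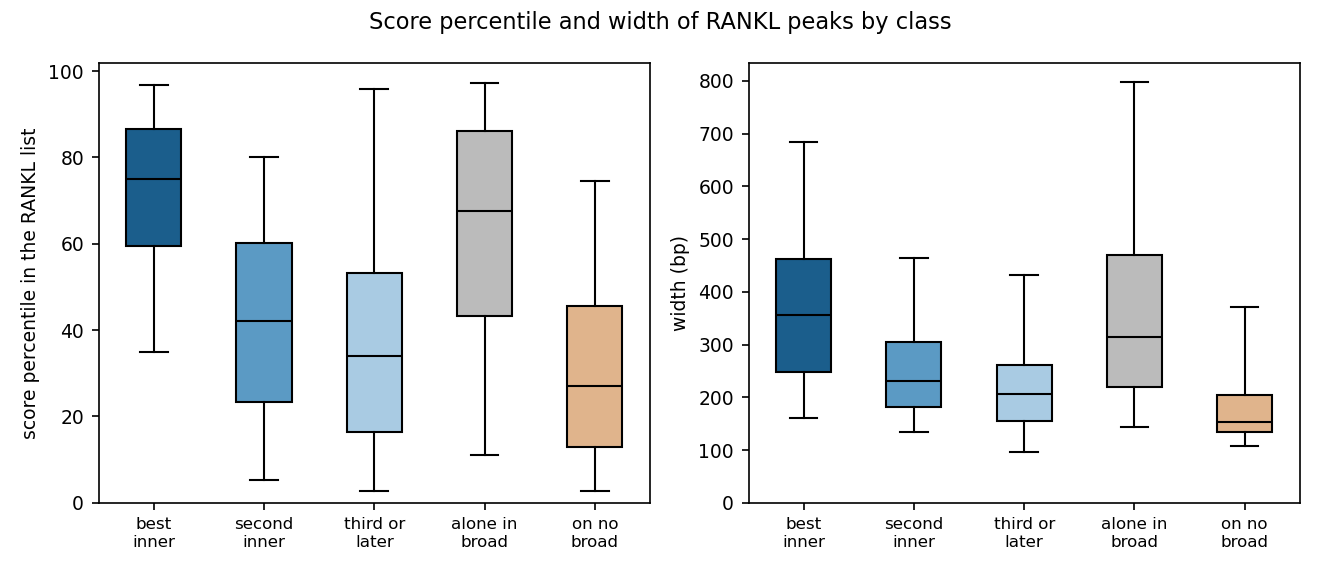
Score percentile in the RANKL list (left) and width in bp (right) of the best inner peaks, the second, and all further ones, of RANKL peaks alone in their broad peak and of RANKL peaks on no broad peak. Boxes give quartiles and medians and whiskers the 5th and 95th percentiles over peaks; the median percentile goes from 74.9 for the best inner peaks to 27.1 for the peaks on no broad peak.

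In 1033 members (45.9%) the best inner peak was in the upper 50% of the RANKL list and the second was not. Both were in the upper 50% in 881 members (39.2%), and neither was in 335 (14.9%). The best and the second differed by a median of 25.2 percentile points, by at most 5 points in 259 members (11.5%) and by over 50 points in 410 (18.2%). Members with both in the highest 10% numbered 33 (1.47%, interval 1.05 to 2.05%).

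Widths of inner peaks followed their rank. The median width was 272 bp over all inner peaks (quartiles 200 and 387 bp), 356 bp for the best, 231 bp for the second and 206 bp for all further ones. Lone RANKL peaks had a median of 315 bp and those on no broad peak 154 bp. The best inner peak was also the widest in 1848 members (82.2%, interval 80.5 to 83.7%). The widest inner peak was a median of 1.51 times as wide as the narrowest of the same member, and over 3 times as wide in 106 members (4.71%).

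Members were next set beside broad peaks with a lone RANKL peak within each of the 10 parts by score. Scores were grouped and not matched. In the lowest of the 10 parts by score, the best inner peak of the 32 members had a median percentile of 49.6 in the RANKL list, and the lone peaks of 311 broad peaks had 45.0. The best inner peaks had the higher median in each part up to the eighth, where the medians were 73.9 and 73.2. Among these parts the difference was largest in the second (60.0 and 47.0) and smallest in the fifth (58.03 and 58.02). The order was the other way in the ninth part (77.5 and 83.8) and in the highest. In the highest part the broad peaks had a median score of 264 in members and 267 in those with a lone peak. The best inner peaks of 553 members had a median of 89.1, and the lone peaks of 781 broad peaks had 95.2. There the best inner peak was narrower than the lone peak (medians of 458 and 580 bp), while all inner peaks of a member together covered a median of 794 bp. The best of several values tends to be high by its choice, which bears on all 10 parts.

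By coordinate alone, with no gene direction assigned, the best inner peak was about as often on either side. In members with 2 inner peaks it was the one at the lower coordinate in 979 of 1956 (50.1%, interval 47.8 to 52.3%). With 3 inner peaks it was the middle one in 96 of 249 (38.6%, interval 32.7 to 44.7%). The centre of the broad peak lay between the centres of both inner peaks in 1415 of 1956 members with 2 (72.3%, interval 70.3 to 74.3%). The best inner peak was centred a median of 233 bp from the centre of the broad peak, against 152.5 bp for a lone RANKL peak, and the midpoint of the whole set of inner peaks a median of 115.5 bp.

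The member with most inner peaks lay on chromosome 2 at 27351652 to 27358310. It was 6659 bp wide and held 10 inner peaks, although its score of 78.6 stood at percentile 32.9 of the untreated list. Its inner peaks were 107 to 295 bp wide and separated by gaps of 47 to 837 bp, and they ran over 5632 bp. In order along the chromosome their RANKL percentiles were 1.16, 25.9, 68.7, 48.04, 55.2, 90.6, 46.5, 58.7, 84.9 and 80.3. The strongest was the sixth, at 27355551 to 27355776. High and low values were mixed along the region.

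The other members with the most inner peaks stood high in the untreated list, and their best inner peaks mostly stood high in the RANKL list. On chromosome 17, the broad peak at 13742871 to 13746255 (percentile 97.5) held 7 inner peaks with percentiles from 78.8 to 99.3, each 71 to 288 bp wide. On chromosome X, the one at 120115334 to 120119961 (percentile 91.2) held 6, with percentiles from 76.5 to 97.8 and gaps of up to 978 bp. On chromosome 3, the one at 8244475 to 8247201 (percentile 99.7) held 5, and the strongest, at 8245755 to 8246179, scored 2314 in the RANKL list while its neighbour at 8245248 to 8245420 scored 71.7. On chromosome 1, the one at 26742497 to 26745472 (percentile 98.95) had 5 inner peaks that covered 62.4% of it, with gaps of at most 163 bp. Their percentiles were 57.3, 41.1, 59.3, 97.0 and 91.0. The broad peak on chromosome 2 at 181664499 to 181667748 (percentile 99.8) held 5 inner peaks, all above percentile 98. A contrast was the broad peak on chromosome 19 at 5487327 to 5492166, at percentile 95.9, whose 5 inner peaks had percentiles of 22.4, 72.3, 0.0486, 26.9 and 56.7.

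**Figure D4:**
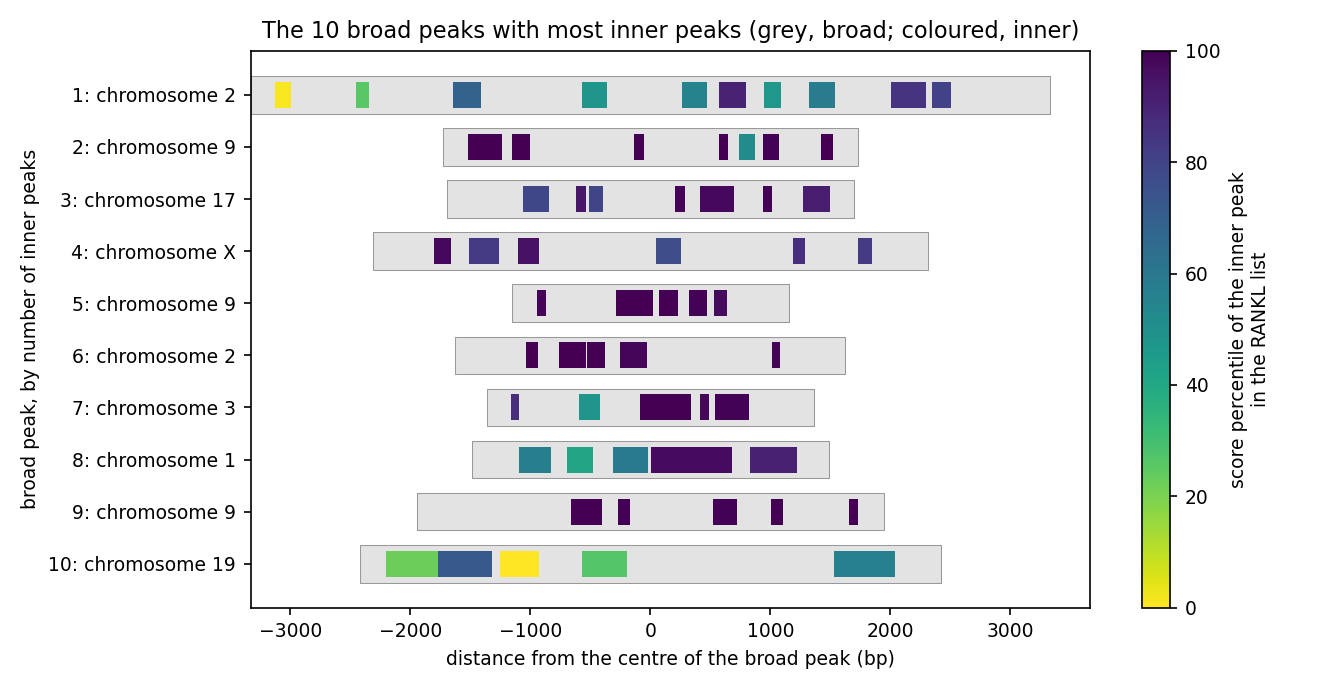
The 10 broad peaks with most inner peaks (grey bars, centred on their middle) and their inner peaks (coloured by score percentile in the RANKL list, 0 to 100), against distance from the centre of the broad peak in bp. The first bar, on chromosome 2, holds 10 inner peaks from percentile 1.16 to 90.6, while in the bars on chromosome 9 all but 1 inner peak stand above percentile 97.

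The start of the chromosome 9 sequence held a run of such sites. All 7 broad peaks below 3.2 Mb there were members, with 29 inner peaks of a median width of 122 bp, and 5 of the 7 held 4 or more. The broad peak at 2999790 to 3003250 held 7 inner peaks, of which 4 carried a score of exactly 3100, the value at which many of the strongest peaks of both lists stood. The broad peak at 3034820 to 3037130 held 5 inner peaks and the one at 3024149 to 3028036 also held 5, and in both the weakest stood above percentile 97. Near the start of any chromosome, below 3.2 Mb, 16 of 24 broad peaks were members (66.7%, interval 46.7 to 82.0%), on 6 chromosomes, with a median inner width of 153 bp. Elsewhere 2233 of 13455 were (16.6%, interval 16.0 to 17.2%), with a median inner width of 274 bp. The limit of 3.2 Mb was chosen after the values were seen. Sequence that occurs in many copies was not tested as a source of these peaks.

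Some of those sites shared the highest score among members, 3100, with members elsewhere. Of the 15 broad peaks on chromosomes 1 to 19 and X that scored 3100 or more, 6 were members. Besides 3 on chromosome 9, among them 3015034 to 3017136 with 4 inner peaks, these lay on chromosome 15 at 74915551 to 74917986 (3 inner peaks), chromosome 13 at 3371419 to 3373564 (2 inner peaks) and chromosome 17 at 39979727 to 39985991. The last held 2 unusually wide inner peaks of 3749 and 1399 bp, which filled 82.2% of it, the largest covered share of any member. Next by score came a member on chromosome 18 at 3003940 to 3006960 (score 2246, 4 inner peaks) and another on chromosome 9 at 3021867 to 3024103 (score 2061, 2 inner peaks). The member on chromosome X at 73843687 to 73845052 (score 1991) held 2 inner peaks at percentiles 99.7 and 32.4. Weaker inner peaks beside top ones were also found on chromosome 18 (42.4), chromosome 15 (48.9) and in the first of the chromosome 9 sites (51.7). In all, the members at the highest 10% of the untreated list had a best inner peak in the highest 10% of the RANKL list in 257 of 551 cases (46.6%, interval 42.5 to 50.8%). Among members in the lower 50% of the untreated list this was so in 19 of 389 (4.88%, interval 3.15 to 7.502%).

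The widest members stood lower in the untreated list than members of middle width. There were 98 members over 4000 bp, 40.8% of the 240 broad peaks of that width. Their median percentile was 63.8, above the 58.1 of all broad peaks that wide and below the 85.3 of members over 2000 and up to 2500 bp. They had 3 or more inner peaks in 34.7% of cases, against 12.2% in that narrower class, and the median of their largest gaps was 675.5 bp, against 117 bp. The widest of all, on chromosome 17 at 34253342 to 34261312, measured 7971 bp and stood at percentile 3.05 of the untreated list, and its 3 inner peaks stood at 72.1, 13.5 and 83.7 of the RANKL list. On chromosome 4, a member of 7522 bp at 3006509 to 3014030 (percentile 40.7) held inner peaks of 1079, 1861 and 467 bp. A member on chromosome 3 at 96300742 to 96307907 was 7166 bp wide (percentile 39.0), and the strongest of its 3 inner peaks stood at percentile 94.0. On chromosome 12, a member of 6845 bp at 116850513 to 116857357 (percentile 75.3) held 4 inner peaks, from percentile 22.1 to 94.7.

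Some members joined inner peaks that lay far apart. The widest gap, 2802 bp, was on chromosome 6 in the broad peak at 72498247 to 72503862, between inner peaks of 508 and 532 bp at percentiles 72.1 and 82.2. On chromosome 1, the broad peak at 173454833 to 173460918 held 3 inner peaks with gaps of 1781 and 2724 bp. The member on chromosome 3 at 88312317 to 88319202, also among the 5 widest, had inner peaks of 1168 and 824 bp that were 2654 bp apart. A gap of 2450 bp was found on chromosome 8 at 109814289 to 109817926. The fifth, of 2351 bp, was on chromosome 11 at 48666238 to 48672897. In each of these the untreated list gave 1 unbroken peak across a stretch where the RANKL list gave none.

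Members also differed in how far one inner peak outweighed the other. The largest difference was on chromosome 19 at 60964420 to 60966557, where inner peaks of 490 and 177 bp stood 8 bp apart at percentiles 97.3 and 2.89. On chromosome 16 at 4682821 to 4685155, peaks of 645 and 304 bp stood 5 bp apart at percentiles 96.6 and 3.15. On chromosome 1 at 165708864 to 165710630, peaks of 572 and 123 bp were 344 bp apart, at percentiles 97.5 and 4.47. The smallest differences, of 0, were ties at the score of 3100 on chromosome 9.

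Members were found on every chromosome examined. The share of broad peaks that were members ran from 13.9% on chromosome 6 (95 of 682, interval 11.5 to 16.7%) to 21.9% on chromosome 3 (153 of 700, interval 18.95 to 25.1%). On chromosome 1 it was 19.7% (164 of 831, interval 17.2 to 22.6%). The intervals of chromosomes 1 and 3 lay above the 16.7% of all chromosomes together, and those of the other chromosomes included it. Chromosome X had 17 members among 113 broad peaks (15.0%, interval 9.61 to 22.8%). On chromosome 3, a segment between 55 and 130 Mb was picked for its many RANKL peaks, and the share of members there is tied to that choice. In the segment 117 of 471 broad peaks were members (24.8%, interval 21.2 to 28.9%). On the rest of that chromosome 36 of 229 were (15.7%, interval 11.6 to 21.0%). Members in the segment had a lower median percentile in the untreated list, 63.9 against 78.1 for all members outside it, and their inner peaks had a median width of 346 bp against 268 bp.

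**Figure D5:**
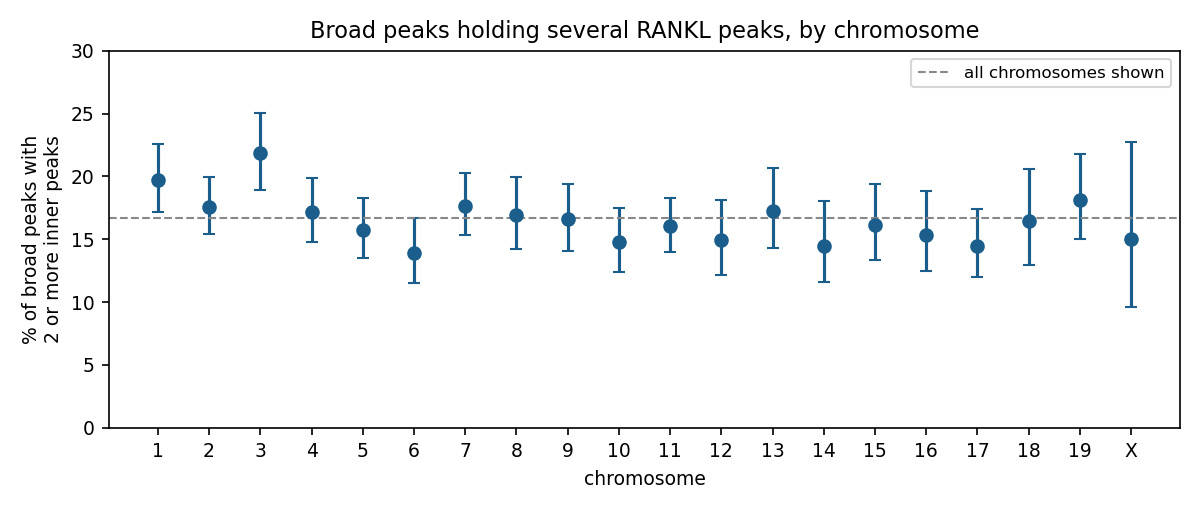
Share of broad peaks with 2 or more inner peaks (vertical axis, %) on each chromosome, with 95% Wilson intervals; the dashed line is the share over all of them, 16.7%. Chromosome 3 stands highest at 21.9% and chromosome 6 lowest at 13.9%.

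Members occurred in 1071 windows of 1 Mb. Windows with 2 or more held 77.8% of the members, the 304 windows with 3 or more held 54.0%, and the 76 windows with 5 or more held 20.3%. Whether members lay closer to each other than broad peaks in general was not tested. Distances to the next broad peak of any kind had a median of 22.8 kb for members, 21.4 kb for broad peaks with exactly 1 RANKL peak and 20.7 kb for those with none. The fullest window was on chromosome 19 from 5 to 6 Mb, where 13 of 35 broad peaks were members (37.1%, interval 23.2 to 53.7%). Of those 13, only 1 held 3 or more inner peaks, and the median of their largest gaps was 59 bp. The next was on chromosome 3 from 96 to 97 Mb, with 12 of 28 (42.9%, interval 26.5 to 60.9%). Members there were wide, with a median of 3347 bp, and 4 exceeded 4000 bp, more than in any other window. They included 96064893 to 96069354 with 4 inner peaks, and 96022301 to 96027746 with 3. Windows with 9 members followed on chromosome 7 from 134 to 135 Mb (9 of 35 broad peaks) and on chromosome 10 from 80 to 81 Mb (9 of 44). The windows named here were picked with their values in view.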

How the data were processed

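DNase-seq of 2 libraries, 1 per group, was used. Positions are on mm9, and the submitters' processing notes name Bowtie2 2.0.0 and MACS2 without giving their roles. Not given in the sources used here are the calling threshold, fragment size, control and whether settings were equal for both libraries, which could move widths, gaps and the number of peaks called for a region. The authors deposited 1 peak list per library with positions and a score per peak. The score, from 50 up, was turned into a percentile within its list and not otherwise rescaled. Where a score itself is quoted, it is as deposited. The deposited positions, in bp, were used as given.

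Overlaps, gaps, widths, medians and quartiles were computed with scipy 1.17.1, pandas 2.3.3 and numpy 2.4.6 under Python 3.11.15, and figures with matplotlib 3.10.9. On planted peaks, including ones that touched or crossed an edge by 1 bp, the number per broad peak was right for 13479 of 13479, and on the deposited lists it equalled that of bedtools 2.31.1 for all 13479. Intervals of shares are 95% Wilson intervals. The 2 medians compared across alternatives had 95% binomial intervals from the ranks of the values. These were 99 to 115 bp for the gap and 267 to 277 bp for the inner width. With 1 library per group no test was run.

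The members and all lists were chosen with earlier results of these data known. Named sites are the 10 members with most inner peaks, the 10 with the highest score, the 5 with the widest gap, the 5 widest, and the 3 with the smallest and the 3 with the largest percentile difference between the best and the second inner peak. Gene lists, start sites and sequence motifs, planned for an annotation or genome of mm9, were not analysed here. Alternatives were other overlap rules, merging RANKL peaks, score limits and leaving out regions.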

Additional observations from a re-analysis of the deposited data

How the results depend on the processing

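Of 88 values from 8 results under 11 alternatives, 52 moved by no more than 1.5 times (counts) or lay inside the interval of the value given above (shares and medians). All 8 results did so with inner peaks required to lie wholly or by 50% inside, without chromosome X, without the chromosome 3 segment, without RANKL peaks in clusters (windows of 100 kb with 5 or more RANKL peaks on no broad peak), and without peaks scoring 3100 or more, the last added after seeing the data. Merging close RANKL peaks joins inner peaks by construction. A merged peak kept the highest score of its parts, and its percentile was taken anew within the merged list. With RANKL peaks closer than 200 bp merged, 835 members (6.19%) with 1733 inner peaks were left, and 6.11% had 3 or more. The median gap was 342.5 bp and the median width 279 bp. In the upper 50% of the merged list were 54.3% of inner peaks, and 22.5% of members were in the highest 10% of the untreated list. The same values with peaks closer than 500 bp merged were 244 (1.81%), 498, 3.28%, 883.5 bp, 319 bp, 52.6% and 18.4%. With peaks closer than 1 kb merged they were 97 (0.720%), 196, 2.06%, 1322 bp, 394 bp, 53.6% and 13.4%. With only the upper 50% of the RANKL list, they were 881 (6.54%), 1863, 7.72%, 90 bp, 340 bp, 100% (by construction) and 38.9%. With only the upper 50% of the untreated list, 27.6% were members, the median inner width was 283 bp, 63.2% of inner peaks were in the upper 50% of the RANKL list and 29.6% of members in the highest 10%. No paired analysis was possible because each group had 1 library, and no replicate could be left out. Alternatives for start sites were not run. Unknown depth limits any statement that a stretch between inner peaks was closed.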
